A study of Homo sapiens with 6 samples.

Results

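The genes described here are 10 parts of the Notch pathway: the ligand genes JAG1, JAG2 and DLL1, the receptor genes NOTCH1, NOTCH2 and NOTCH3, the glycosyltransferase gene LFNG, the DNA-binding factor gene RBPJ and the effector genes HES1 and HEY1. They were picked by symbol, with earlier results of these data known. All 10 were found among the 62700 genes of the deposited count table. The table holds poly(A)-selected RNA sequencing of SAS, a human squamous carcinoma cell line. It has 3 libraries of cells with a control siRNA (siC, labelled WT) and 3 of cells with an siRNA against IGF2BP1 (siIGF2BP1, labelled IGF2BP1 knockdown), an RNA-binding protein that stabilises many transcripts. The study asked whether IGF2BP1 counteracts the silencing of YAP1, a growth-promoting coactivator, by the Hippo kinases. The labels name no further treatment, time or siRNA sequence. Whether the replicates are separate cultures is not stated, and the p-values reflect library-to-library spread that may be technical.

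Notch signalling passes between touching cells. A Jagged or Delta ligand on the surface of a cell pulls on a Notch receptor on its neighbour, the receptor is cut by ADAM proteases and then by gamma-secretase, and the freed intracellular part joins RBPJ and Mastermind coactivators on DNA. HES and HEY genes, which encode transcriptional repressors, are the classical targets. In stratified squamous epithelium the pathway is known for its part in the exit of keratinocytes from the basal layer, and it is often disabled in squamous carcinomas.

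All 3 ligand genes, LFNG and HES1 were lower after knockdown of IGF2BP1, each to between 0.541 and 0.625 of its control mean. The receptor genes NOTCH1, NOTCH2 and NOTCH3 had log2 fold changes between -0.32 and -0.29 and did not pass the test, and RBPJ and HEY1 had few reads. Counts were compared with edgeR's quasi-likelihood test, and a gene was called at a Benjamini-Hochberg adjusted p under 0.05 over the 14649 genes tested. Of the 10 genes 9 had enough reads for the test: 5 were called lower, 0 were called higher, and 4 were not called. Among all genes tested, 6.66% were called lower and 6.27% higher. At an unadjusted p under 0.05, 7 of the 9 were lower and 0 higher, beside 12.6% lower and 13.1% higher of all tested genes. DESeq2 and limma-voom each called 5 lower and 0 higher, where 8.79% and 6.61% of all genes were called lower and 7.5% and 5.91% higher. The median log2 fold change of the 9 genes was -0.68, beside 0.03 over all tested genes. As the genes were chosen with earlier results known, these shares and medians do not test the set against other genes. Fewer cells of a type and less RNA per cell cannot be told apart in such bulk samples.

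**Figure D1:**
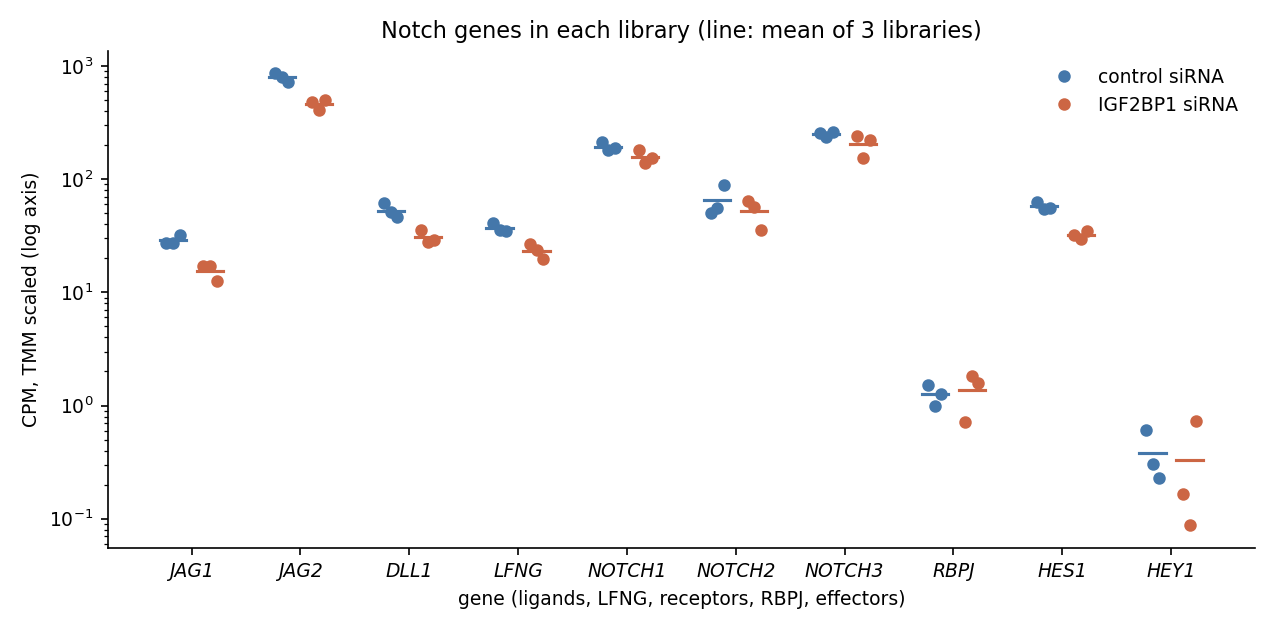
Level of the 10 Notch genes in each library, in CPM (reads scaled to library size with TMM factors, log axis); points are libraries, short lines the means of 3 libraries, blue control siRNA and orange IGF2BP1 siRNA. JAG1, JAG2, DLL1, LFNG and HES1 have all 3 knockdown libraries below all 3 control libraries, while the groups overlap for the other 5 genes.

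Depth ran from 17918496 to 26675064 counted reads per library, so that 3 reads correspond to between 0.115 and 0.165 CPM. The shallowest library, knockdown 1, detected the most genes (20392, against 19392 to 19872 in the others). IGF2BP1 itself stood at 9.64 ± 1.55 CPM in control libraries and 1.16 ± 0.399 CPM in knockdown libraries (mean ± SD, n = 3 each). All 10 squamous epithelial markers had reads, with a summed level of 11156 to 12163 CPM in controls and 6935 to 8105 CPM after knockdown, where KRT5, KRT14 and KRT6A were called lower. The 10 fibroblast markers summed to between 5.72 and 9.29 CPM in the 6 libraries, with DCN, LUM and COL3A1 at 0. The 9 leukocyte markers summed to between 17.8 and 19.2 CPM in controls and 12.7 and 15.2 CPM after knockdown, of which CD14 made up 17.8 and 13.1 CPM on average, with PTPRC and CD3E at 0. The 10 endothelial markers summed to between 231 and 238 CPM in controls and 294 and 316 CPM after knockdown, of which EGFL7 made up 226 and 293 CPM on average, with KDR and CLDN5 at 0. The fibroblast marker PDGFRB (log2 fold change 1.52, adjusted p = 0.0491) and the endothelial marker EGFL7 (0.37, adjusted p = 0.0155) were called higher. PDGFRB rests on few reads, from 10 to 52 per library. The other tested fibroblast markers, COL1A2 and COL1A1, had negative log2 fold changes (-0.86 and -0.29) and were not called. The part of these marker levels in the results was not tested.

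HES1 is the best known direct target of the Notch and RBPJ complex, and its promoter is shown because HES1 and its relative HES4 were both called lower and hold the same arrangement of RBPJ-type motifs. The searched motifs were TGGGAA, the core of the RBPJ site, and its variant TGTGAA, on both strands; they do not overlap each other here. Sequences are from RefSeq on GRCh38.p14, 250 bases before the annotated transcription start, 5′ to 3′ on the gene's own strand, with the motif matches in capitals. HES1 lies at chr3:194135898-194136147 on the plus strand and HES4 at chr1:1000098-1000347 on the minus strand.
HES1: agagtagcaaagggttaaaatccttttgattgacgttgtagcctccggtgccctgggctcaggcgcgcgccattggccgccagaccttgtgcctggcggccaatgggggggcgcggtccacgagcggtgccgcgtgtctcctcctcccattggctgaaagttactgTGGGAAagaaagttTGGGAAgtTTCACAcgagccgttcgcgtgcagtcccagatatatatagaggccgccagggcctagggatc
HES4: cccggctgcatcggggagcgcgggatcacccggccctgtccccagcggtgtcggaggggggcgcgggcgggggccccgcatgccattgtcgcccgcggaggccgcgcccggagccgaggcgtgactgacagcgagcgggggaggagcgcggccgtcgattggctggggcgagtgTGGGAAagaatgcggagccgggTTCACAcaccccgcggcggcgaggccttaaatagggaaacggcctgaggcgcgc
Counting the transcription start as 0, the HES1 matches lie at -84 to -79 and -70 to -65 (TGGGAA, forward) and at -62 to -57 (TGTGAA, read on the reverse strand). The HES4 matches lie at -76 to -71 (TGGGAA, forward) and -54 to -49 (TGTGAA, reverse). In both, a forward match is followed by a reverse match 15 to 17 bases further on, the head-to-head layout known from paired RBPJ sites. That spacing was set after the HES1 sequence had been seen. TGGGAA on either strand was present in 24.0% of all 35116 promoters in the RefSeq table (from 250 bases before to 50 after the start), TGTGAA in 13.1%, and the head-to-head pair in 0.0626%, or 22 promoters of 20 genes. Of those 20 genes 6 were tested here. HES1 and HES4 were called lower, but they were shown for that reason, so their calls are no separate result. Of the others, 1 (ARHGAP22) was called higher and 3 (CALD1, FJX1 and TRUB1) were not called. Promoters of 8 of the 10 Notch genes were searched, in 13 entries, and 4 of the entries, from HES1, LFNG and RBPJ, held TGGGAA. HEY1 was left out of this search beforehand, and DLL1 had no entry, so nothing is said of their promoters. Of the other searched genes called lower, from the 10 Notch genes or the wider pathway, HES7, NRARP, JAG1, JAG2, NCSTN and POFUT1 held neither motif. LFNG, NEURL1 and CTBP2 held TGGGAA without the pair. HES5, with more reads after knockdown, held both motifs but not the pair. A match is a description of the sequence and not evidence of binding.

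JAG2 was by far the most abundant of the 10 genes (ENSG00000184916; GRCh38 chromosome 14, 105140981 to 105168824, minus strand). It encodes Jagged 2, a ligand of stratified epithelia and thymus. Its levels were 863, 793 and 728 CPM in controls 1 to 3 and 484, 410 and 506 CPM in knockdowns 1 to 3. All knockdown libraries lay below all control libraries, and the means were 795 ± 67.4 and 467 ± 50.4 CPM (mean ± SD, n = 3 each). The fitted log2 fold change was -0.77 (SE 0.11, 95% interval -1.0 to -0.54, adjusted p = 1.96e-04).

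JAG1 (ENSG00000101384; chromosome 20, 10637684 to 10673999, minus strand) encodes Jagged 1, the ligand mutated in Alagille syndrome, and has been described as a YAP1 target gene in liver. Control libraries held 27.2, 27.2 and 32.2 CPM and knockdown libraries 17, 17.2 and 12.6 CPM. The groups did not overlap, with knockdown 3 the lowest library. The mean went from 28.9 ± 2.85 to 15.6 ± 2.61 CPM (mean ± SD, n = 3 each), a log2 fold change of -0.89 (SE 0.17, 95% interval -1.24 to -0.54, adjusted p = 0.00179).

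DLL1 (ENSG00000198719; chromosome 6, 170282206 to 170306565, minus strand) encodes Delta-like 1, the Delta ligand of basal keratinocytes. It stood at 61.4, 50.9 and 46.0 CPM in controls 1 to 3 and at 35.4, 27.9 and 28.8 CPM in knockdowns 1 to 3. The lowest control was still above the highest knockdown library. Its mean fell from 52.8 ± 7.90 to 30.7 ± 4.12 CPM (mean ± SD, n = 3 each), with a log2 fold change of -0.78 (SE 0.14, 95% interval -1.09 to -0.48, adjusted p = 0.00164).

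The other Delta genes were not called. DLL3, which encodes a Delta protein that acts mostly inside the cell, was at 6.09, 4.48 and 6.45 CPM in controls and 8.03, 7.70 and 8.52 CPM after knockdown, with no overlap (log2 fold change 0.51, adjusted p = 0.171). DLL4, the endothelial ligand, was near 1 CPM in both groups (0.902 ± 0.649 and 1.23 ± 0.366 CPM, SD, n = 3 each; adjusted p = 0.687). Per kilobase of gene length, JAG2 made up 86.6% ± 0.496 of the summed level of these 5 ligands in controls and 84.8% ± 1.51 after knockdown (mean ± SD, n = 3 each). The share of DLL3 was 1.52% ± 0.333 in controls and 3.6% ± 0.228 after knockdown, and those of JAG1 and DLL1 differed by less than the SD between replicates.

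LFNG (ENSG00000106003; chromosome 7, 2512529 to 2529177, plus strand) encodes lunatic fringe, which adds a sugar to O-fucose on Notch and so shifts receptors towards Delta and away from Jagged ligands. Levels were 41.2, 35.7 and 35.1 CPM in controls 1 to 3 and 26.7, 23.5 and 19.8 CPM in knockdowns 1 to 3. The groups did not overlap. The mean went from 37.3 ± 3.35 to 23.3 ± 3.48 CPM (mean ± SD, n = 3 each), a log2 fold change of -0.68 (SE 0.15, 95% interval -0.99 to -0.37, adjusted p = 0.00568). The other fringe genes were not called: radical fringe, RFNG, had a fitted log2 change of 0.03 and manic fringe, MFNG, one of -0.54 (adjusted p = 0.9 and 0.306). Per kilobase, LFNG was 31.4% ± 3.26 of the 3 fringe genes in controls and 22.2% ± 2.38 after knockdown, and RFNG 64.7% ± 3.92 and 74.9% ± 2.24 (mean ± SD, n = 3 each).

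None of the 3 receptor genes passed the test. NOTCH1 (ENSG00000148400; chromosome 9, 136494433 to 136545786, minus strand) encodes the main receptor of keratinocytes, a tumour suppressor in squamous epithelium. It was at 211, 181 and 190 CPM in controls 1 to 3 and 182, 139 and 154 CPM in knockdowns 1 to 3, so that knockdown 1 lay above control 2. The log2 fold change was -0.29 (SE 0.12, 95% interval -0.54 to -0.05, adjusted p = 0.111), and without knockdown 1 it was -0.41 and called (adjusted p = 0.0148). NOTCH3 (ENSG00000074181; chromosome 19, 15159038 to 15200981, minus strand), a receptor that is itself induced by Notch activity in several cell types, held 259, 238 and 263 CPM in controls and 242, 154 and 222 CPM after knockdown. Knockdown 1 again reached the control range. The fitted log2 fold change was -0.30 (SE 0.14, 95% interval -0.59 to -0.01, adjusted p = 0.181), -0.44 without knockdown 1, where it was called (adjusted p = 0.04), and -0.16 without knockdown 2 (adjusted p = 0.381).

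NOTCH2 (ENSG00000134250; chromosome 1, 119911553 to 120069626, minus strand) varied more within the groups than the other receptors. Control 3 held 88.7 CPM against 50.3 and 55.8 CPM in controls 1 and 2, and knockdown 3 held 35.5 CPM against 64.2 and 57.0 CPM in knockdowns 1 and 2. The groups overlapped widely (log2 fold change -0.32, SE 0.25, 95% interval -0.88 to 0.25, adjusted p = 0.493). Without control 3 the value was -0.04, and without knockdown 3 it was -0.11, neither called. NOTCH2 has near-identical partial copies, the NOTCH2NL genes, whose 4 listed members held between 0 and 27 reads per library against 925 to 2311 for NOTCH2, so its count is uncertain to the extent that reads were shared.

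Summed per kilobase, the receptors NOTCH1 to NOTCH4 came to 46.3 ± 2.84 CPM per kb in controls and 37.6 ± 6.62 after knockdown, and the 5 ligands to 144 ± 12.2 and 86.0 ± 8.35 (mean ± SD, n = 3 each). The ligand sums of the groups did not overlap, whereas knockdown 1 lay within the control range of the receptor sum. The ratio of ligand to receptor sum was 3.30, 3.30 and 2.72 in the control libraries and 2.05, 2.48 and 2.41 in the knockdown libraries. These sums hold the genes tested above and were given no test of their own. Within the receptor sum the shares stayed close: NOTCH3 took 58.2% ± 0.563 in controls and 57.8% ± 4.54 after knockdown, and NOTCH1 33.5% ± 2.12 and 33.8% ± 1.91 (mean ± SD, n = 3 each).

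**Figure D2:**
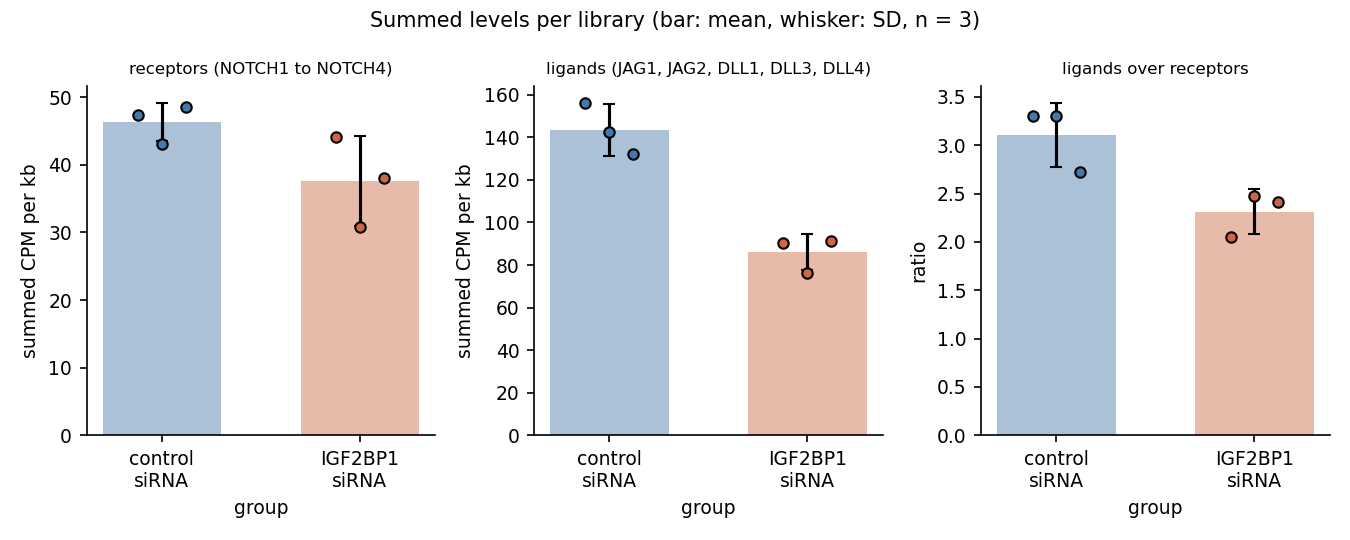
Summed level per kilobase of the receptor genes (left) and ligand genes (middle) and their ratio (right); bars are means, whiskers SD, points the 3 libraries of each group. The mean ligand sum is 144 CPM per kb in controls and 86.0 after knockdown with no overlap of libraries, while the receptor sums of 46.3 and 37.6 overlap.

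HES1 (ENSG00000114315; chromosome 3, 194136145 to 194138732, plus strand) was the effector with reads enough to test among the 10 genes. It held 62.6, 54.6 and 55.9 CPM in controls 1 to 3 and 32.0, 29.8 and 34.7 CPM in knockdowns 1 to 3. The groups stood well apart, with means of 57.7 ± 4.27 and 32.2 ± 2.48 CPM (mean ± SD, n = 3 each). The fitted log2 fold change was -0.84 (SE 0.12, 95% interval -1.11 to -0.58, adjusted p = 2.57e-04).

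HEY1 (ENSG00000164683; chromosome 8, 79764010 to 79767863, minus strand), a related repressor prominent in endothelium, had 14, 7 and 6 reads in controls 1 to 3 and 3, 2 and 19 reads in knockdowns 1 to 3. It did not pass the filter on low counts. Knockdown 3 alone gave 19 of the 24 knockdown reads, and the pooled ratio of knockdown to control was 0.955 with a 95% counting interval from 0.528 to 1.72, so no change was detectable at this depth.

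RBPJ (ENSG00000168214; chromosome 4, 26163455 to 26435131, plus strand), the DNA-binding centre of the pathway, was at 35, 23 and 33 reads in controls and 13, 42 and 41 reads after knockdown. The means were 1.26 ± 0.272 and 1.38 ± 0.587 CPM (mean ± SD, n = 3 each; log2 fold change 0.13, 95% interval -0.83 to 1.1, adjusted p = 0.893). The sign turned without control 2 (-0.02) and without knockdown 2 (-0.14). The 4 RBPJ pseudogenes found in the table, RBPJP2, RBPJP5, RBPJP6 and RBPJP7, held 0 reads in all 6 libraries; how reads that match several genes were counted is not given in the sources used here. RBPJ has a GC-poor transcript (38.0% GC in its longest GENCODE transcript, the lowest quintile of tested genes). Tested genes in that quintile had a median control level of 0.373 CPM per kb, against 7.26 in the highest GC quintile; the part of base composition in the low level of RBPJ was not tested.

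**Figure D3:**
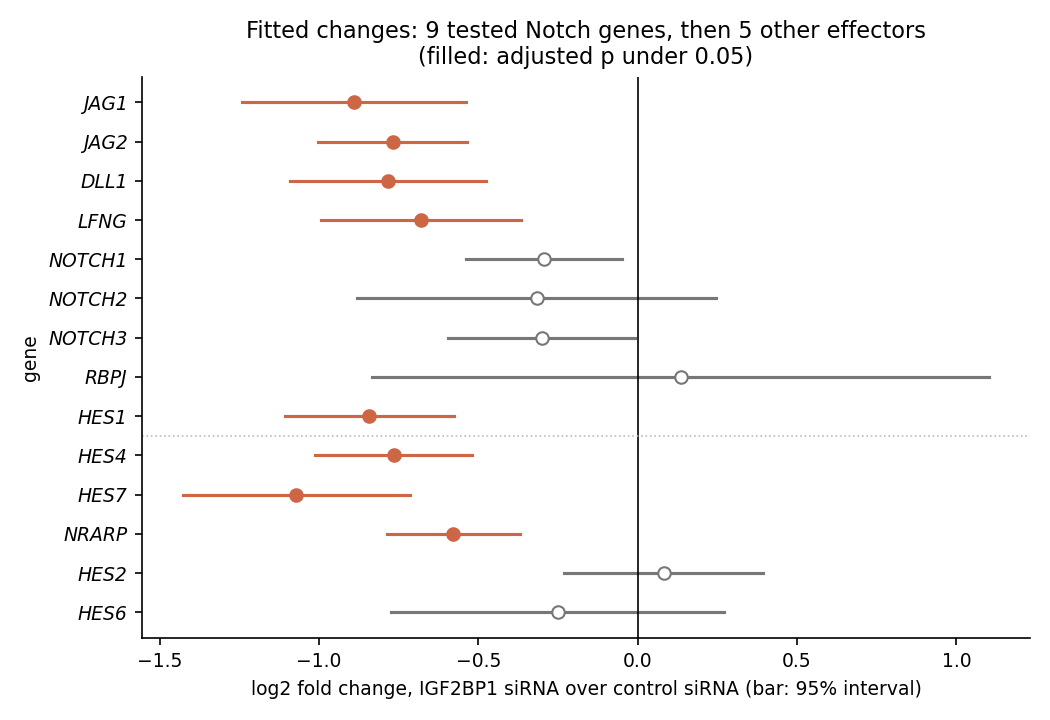
Fitted log2 fold change (IGF2BP1 siRNA over control siRNA, n = 3 each) with 95% intervals for the 9 tested Notch genes and, under the dotted line, 5 further effector genes; filled points passed an adjusted p under 0.05. JAG1, JAG2, DLL1, LFNG and HES1 lie between -0.89 and -0.68, the receptors between -0.32 and -0.29, and HES4, HES7 and NRARP between -1.07 and -0.58.

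Ordered by level per kilobase in controls, the genes ran from JAG2 (124 CPM per kb) through HES1 (28), NOTCH3 (26.9), NOTCH1 (15.5), DLL1 (13.8), LFNG (10.9), NOTCH2 (3.88) and JAG1 (3.10) to RBPJ (0.0825) and HEY1 (0.0696). The control ranges of neighbours overlapped for HES1 and NOTCH3, for NOTCH1 and DLL1, for NOTCH2 and JAG1, and for RBPJ and HEY1. After knockdown the order of means was the same except that NOTCH3 (21.9 CPM per kb) stood above HES1 (15.6). Lengths are those of the deposited table, and for RBPJ, HEY1, NOTCH1 and DLL1 they exceed the summed exons of GENCODE release 29, which lowers their values on this scale. Tested genes had a median control level of 2.47 CPM per kb in the third GC quintile, which holds JAG1. In the fifth, which holds JAG2, it was 7.26. The part of base composition in this order and in the ligand shares was not tested.

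The wider pathway was read from a list of 64 other Notch genes, also chosen with earlier results known. Of these 53 were tested: 7 were called lower and 0 higher, beside the 6.66% lower and 6.27% higher of all genes. At an unadjusted p under 0.05, 10 were lower and 6 higher, beside 12.6% and 13.1% of all tested genes. DESeq2 called 7 lower and 2 higher, beside 8.79% and 7.5% of all genes. The median log2 fold change of the 53 was 0.01. The calls fell unevenly over the roles, as the plot of pathway genes by role shows: 3 of the 5 tested effectors were lower, against 1 of 4 glycosyltransferase genes, 1 of 9 protease genes, 1 of 5 genes of ligand endocytosis and 1 of 11 corepressor genes. No call was made among the 4 other receptor and ligand genes, 9 genes of turnover and inhibition, and 6 coactivator genes. The difference between roles was not tested.

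**Figure D4:**
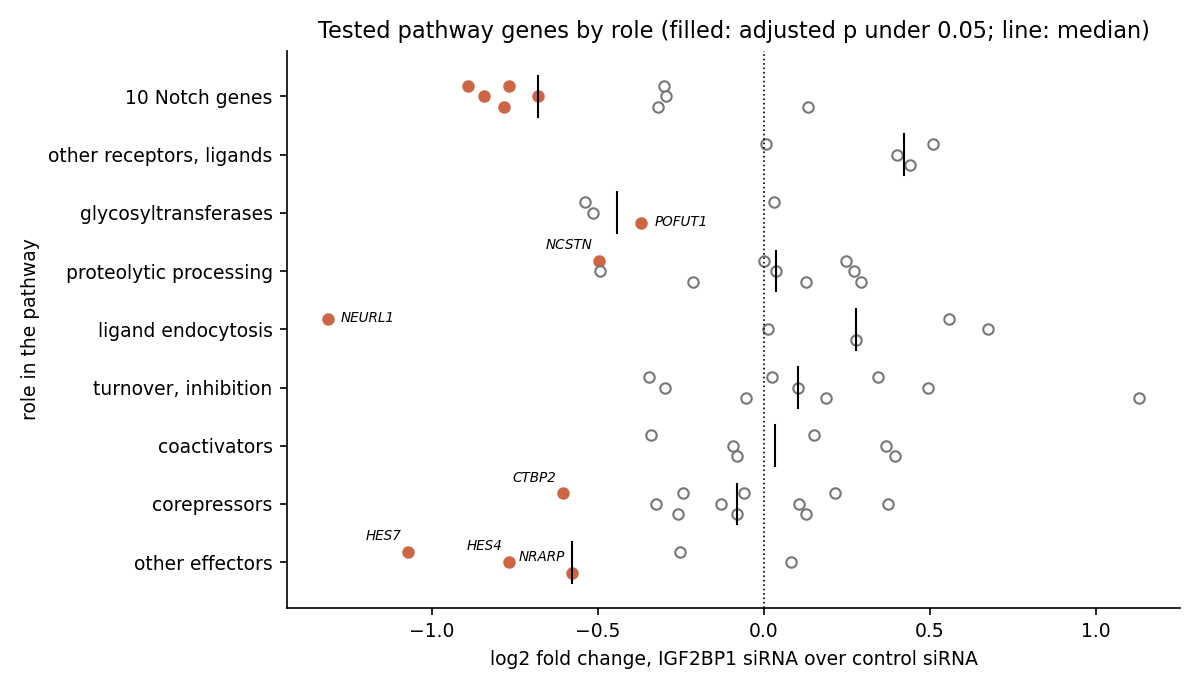
Log2 fold change (IGF2BP1 siRNA over control siRNA) of each tested pathway gene, grouped by role; filled points passed an adjusted p under 0.05 and vertical lines are medians. In the other effectors 3 of 5 points are filled, and the medians of the other receptors and ligands (0.42) and of ligand endocytosis (0.28) lie above 0.

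Among the other effectors, HES4, a close relative of HES1 (chromosome 1, 998962 to 1000172, minus strand), stood at 82.0, 77.2 and 78.4 CPM in controls and 49.4, 41.4 and 48.8 CPM after knockdown. The fitted log2 fold change was -0.77 (SE 0.12, adjusted p = 3.17e-04). HES7, known as an oscillator of the segmentation clock, went from 26.4 ± 4.19 to 12.6 ± 0.930 CPM (mean ± SD, n = 3 each; log2 change -1.07, adjusted p = 4.21e-04). NRARP, a Notch target that in turn limits Notch signalling, held 196, 181 and 186 CPM in controls and 122, 131 and 124 CPM after knockdown (log2 fold change -0.58, SE 0.10, adjusted p = 8.30e-04). Groups did not overlap for these 3 genes.

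Not every HES or HEY gene was lower. HES2 was at 57.4 ± 11.1 CPM in control libraries and 60.8 ± 8.69 CPM in knockdown libraries (mean ± SD, n = 3 each; log2 fold change 0.08, 95% interval -0.23 to 0.39), and HES6 at 5.56 ± 0.231 and 4.66 ± 0.684 CPM (-0.25, 95% interval -0.77 to 0.27). HEY2 had 9, 2 and 9 reads in controls and 0 in each knockdown library, a ratio of 0 with a 95% counting interval up to 0.218. HEYL had 27 reads in controls and 22 after knockdown. HES5 had 2 control reads and 22 knockdown reads, 16 of them in knockdown 2, 11.8 times the control level (95% counting interval 2.91 to 104). HES3 had 0 reads in all libraries. HEY2, HEYL and HES5 were too low for the test, and counting intervals cover counting error only.

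In the sending and modifying parts of the pathway, the largest change was in NEURL1 (chromosome 10, 103493979 to 103592552, plus strand), which encodes a ubiquitin ligase that promotes endocytosis of ligands. It held 173, 152 and 175 CPM in controls 1 to 3 and 73.7, 61.7 and 66.1 CPM in knockdowns 1 to 3 (log2 fold change -1.31, SE 0.11, adjusted p = 1.04e-06). Its paralog NEURL1B was not called, at 9.64 ± 1.25 CPM in control libraries and 14.2 ± 0.320 CPM in knockdown libraries (mean ± SD, n = 3 each; log2 change 0.56, adjusted p = 0.0565). NEURL1B was called higher with no scaling factor, the stricter filter, the replicate block and DESeq2 (adjusted p from 0.0285 to 0.0422). MIB2, another ligase for ligands, had a fitted log2 difference of 0.28 (adjusted p = 0.115, and called at 0.34 without knockdown 1, adjusted p = 0.0395, with no scaling factor, adjusted p = 0.0284, and with the stricter filter, adjusted p = 0.0477).

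POFUT1, the enzyme that puts O-fucose on Notch and so prepares the site that fringe extends, went from 179 ± 9.65 to 139 ± 8.93 CPM (mean ± SD, n = 3 each; log2 change -0.37, adjusted p = 0.0235). It was no longer called when control 1, control 2 or knockdown 3 was left out (adjusted p = 0.067, 0.0551 and 0.0809). NCSTN, which encodes the gamma-secretase subunit nicastrin, went from 117 ± 9.85 to 83.0 ± 10.9 CPM (mean ± SD, n = 3 each; log2 change -0.50, adjusted p = 0.0109); 3.09% of its exon bases are shared with COPA on the opposite strand. The other gamma-secretase genes were not called, among them APH1A, the most abundant per kilobase (log2 fold change 0.13, adjusted p = 0.441; C1orf54 on the opposite strand shares 14.1% of its exon bases). ADAM10, the protease of ligand-induced cleavage, was low at 3.13 ± 1.49 and 2.70 ± 1.42 CPM (mean ± SD, n = 3 each), with a log2 fold change of -0.21 and a 95% interval from -1.11 to 0.68.

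In the nucleus, CTBP2, which encodes a corepressor found in RBPJ complexes, held 53.6, 55.5 and 58.4 CPM in controls and 37.9, 35 and 37.3 CPM after knockdown (log2 fold change -0.60, adjusted p = 0.00258). ZRANB1 on the opposite strand shares 31.2% of its exon bases, so the value is uncertain, although ZRANB1 had between 57 and 121 reads per library against 689 to 1521 for CTBP2. The most abundant genes of the nuclear lists, HDAC1 (log2 fold change -0.24, adjusted p = 0.146) and the acetyltransferase gene KAT2A (-0.09, adjusted p = 0.629), were not called. In the turnover list DTX2, a Deltex ubiquitin ligase, was not called (-0.35, adjusted p = 0.165) but was without knockdown 1 (-0.50, adjusted p = 0.0393), with no count filter (adjusted p = 0.0305) and with the replicate block (adjusted p = 0.0239). Without knockdown 2 its value was -0.22 (adjusted p = 0.355). FBXW7, which marks the Notch intracellular domain for degradation, had a log2 fold change of 1.13 from low levels (1.14 ± 0.187 and 2.52 ± 0.768 CPM, SD, n = 3 each; adjusted p = 0.0681, and 0.0494 with no scaling factor). DLK2, a non-canonical ligand of the Delta type, was not called (0.40, adjusted p = 0.0524), but was without knockdown 2 (0.45, adjusted p = 0.0385) and with no scaling factor, the stricter filter, the replicate block and DESeq2 (adjusted p from 0.0149 to 0.0436). Without knockdown 1 its value was 0.29 (adjusted p = 0.176). ABCC10 on the opposite strand shares 3.53% of the DLK2 exon bases. ABCC10 had between 1053 and 2037 reads per library, against 805 to 1172 for DLK2.

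Among genes tied to Notch in keratinocyte differentiation, IVL, which encodes the envelope protein involucrin (log2 fold change 2.42, adjusted p = 2.23e-04), and the suprabasal keratin gene KRT10 (0.47, adjusted p = 0.0255) rose. KRT10 was no longer called when control 2, control 3, knockdown 1 or knockdown 3 was left out (adjusted p from 0.0555 to 0.11). TMEM99 on the opposite strand shares 2.61% of its exon bases and had between 427 and 862 reads per library. TP63 and CDKN1A were not called, with log2 fold changes of -0.01 and 0.01. The value of CDKN1A turned its sign with RLE scaling (-0.0036). KRT1 had 3 reads in controls and 0 after knockdown.

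The calls of the 5 lower genes held in each of 13 alternative analyses, 6 of which leave out 1 library. Their log2 fold changes ran from -1.0 to -0.76 for JAG1, -0.84 to -0.69 for JAG2, -0.90 to -0.69 for DLL1, -0.91 to -0.76 for HES1 and -0.79 to -0.58 for LFNG, and the highest adjusted p was 0.0363, for LFNG. Genes of moderate to high level were called lower more often than others in these data: 11.2% in the fourth quintile of mean CPM, which holds JAG1, DLL1, LFNG and HES1, and 15.8% in the fifth, which holds JAG2. By GC content, 8.07% were called lower in the third quintile (JAG1 and HES1), 10.7% in the fourth (DLL1) and 9.40% in the fifth (JAG2 and LFNG). Knockdown and control libraries did not overlap in the lower direction for 5 of the 9 tested genes, beside 15.1% of all tested genes. Exon overlap with a gene on the other strand covers 0.850% of JAG1, and a transcript with 0 reads on the same strand shares 7.33% of those of JAG2; GENCODE release 29 showed no exon overlap with another gene for the other 8.

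**Figure D5:**
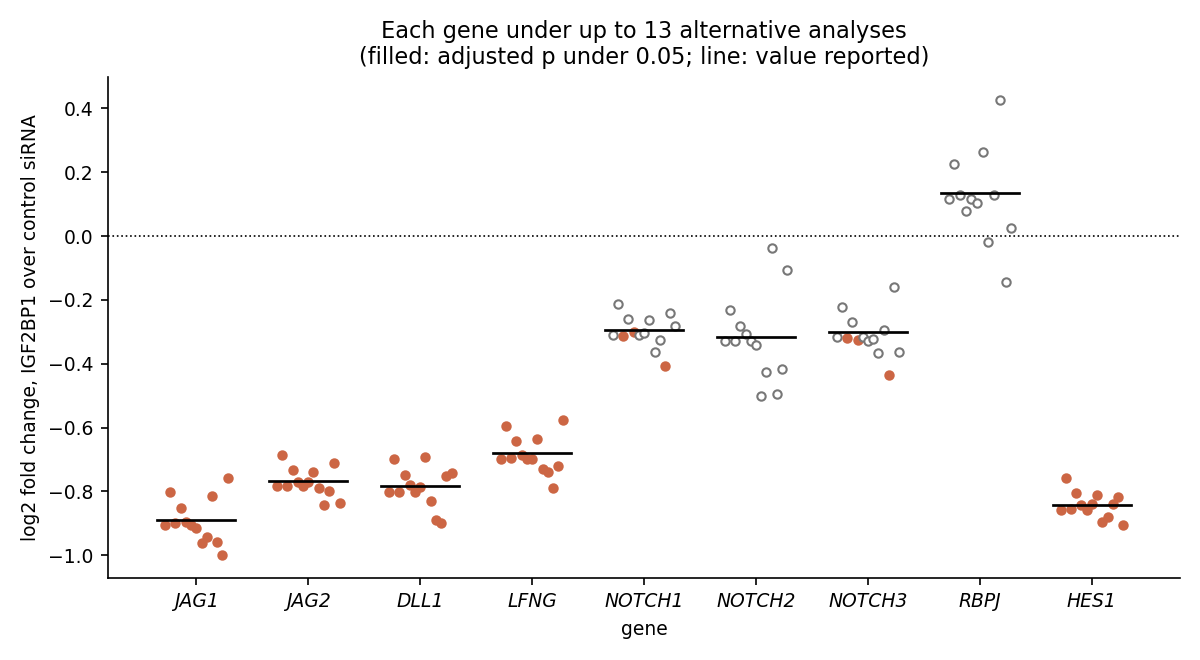
Log2 fold change of the 9 tested Notch genes in up to 13 alternative analyses (points) and as reported (lines); filled points passed an adjusted p under 0.05. All points of JAG1, JAG2, DLL1, LFNG and HES1 are filled and lie between -1.0 and -0.58, while NOTCH1 and NOTCH3 have 3 filled points each and NOTCH2 and RBPJ have none.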

How the data were processed

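The deposited table gives raw read counts per gene for 6 libraries together with gene lengths, another column whose making by the authors is not described. Per the submitters' processing notes, cutadapt 2.8, HISAT2 2.1.0, SAMtools 1.10, featureCounts 2.0.0 and hg38 were used; annotation release, strand setting and treatment of multi-mapping reads: not given in these sources. Columns were matched to samples by library name, and 0 were left unused. Per the labels' protocols, libraries were directional (dUTP).

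Genes were kept with filterByExpr (minimum count 10, minimum total 15) and tested with edgeR 4.0.16 (R 4.3.3): TMM, robust dispersions, glmQLFit and glmQLFTest, 2 groups, no covariate. SE is the coefficient divided by the square root of the quasi-F statistic. Levels per kb divide CPM by the deposited length. Replicates differed beyond sampling noise (chi-square per degree of freedom 14.6 to 36.2). Alternatives used RLE or no scaling, no or a stricter filter, a replicate block, DESeq2 1.42.0, limma-voom (limma 3.58.1) and leaving out each library. Tested on simulated data (10 simulations of this comparison over 14649 genes, 200 changed in each), the fit recovered, with the right sign, 22.4% of 1.5-fold, 50.4% of 2-fold and 81.5% of 4-fold changes; 8.64% of calls were unchanged genes.

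The members and lists were chosen with earlier results of these data known. Named are the 10 genes, IGF2BP1, each called gene of the wider lists (some list genes are not reported here), and each list's most abundant tested gene per kb; other genes were singled out after their values were seen, as were the promoter motifs. Coordinates are from GENCODE release 29 (GRCh38, the assembly called hg38). Genes whose promoter is not in the RefSeq table are named only.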

Additional observations from a re-analysis of the deposited data

How the results depend on the processing

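The 5 Notch genes called lower kept direction and call in all 13 alternatives. The number of them called was 5 to 7 in each, the further calls being NOTCH1 and NOTCH3, and 0 were called higher. Correlations of same-numbered deviations were 0.18, 0.09 and -0.07, and those of differently numbered libraries ran from -0.23 to 0.17. These few values cannot settle whether replicate numbers pair the libraries. With the replicate block, all calls rose from 1893 to 2431, and 2 wider pathway genes were called higher. NOTCH1 (-0.30, adjusted p = 0.0284) and NOTCH3 (-0.33, adjusted p = 0.0393) were called lower with that block. With no count filter both were called too (-0.31 and -0.32, adjusted p = 0.0487 and 0.0347). Wider pathway genes called higher numbered 0 as reported, 4 with no scaling factor, 3 with the stricter filter, 2 with DESeq2 and 0 to 1 without a library; those called lower, 7 as reported, were 6 to 8 in all alternatives. Of all calls 48.5% were higher as reported, which dropping the scaling factor raised to 63.2%. Without a library all calls ran from 1231 (without control 2) to 1948. RBPJ ran from -0.14 to 0.43 without a library. CDKN1A ran from -0.040 to 0.042 without a library and was -0.0036 with RLE scaling, -0.0032 with no count filter and -0.0036 with DESeq2. Of 336 values of single genes, 306 kept direction and side of the threshold, 7 lost and 14 gained a call and 9 turned sign. The ligand to receptor ratio differed by -0.80 between groups, and by -0.99 to -0.66 without a library, an alternative chosen after seeing the data. Causes were not tested. Depth limits HEY1, HEY2, HES5 and RBPJ, which rest on few reads.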
